A study of Mus musculus with 12 samples.

Results

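H3K4me3 peak lists of mouse melanoma cells with mutant Kmt2d and of cells with intact Kmt2d (WT) were compared with each other. H3K4me3, the trimethylated form of lysine 4 of histone H3, was mapped by chromatin immunoprecipitation and sequencing (ChIP-seq) with the antibody ab8580. The lists were taken by sample title, 2 of the 12 samples in the series. They held 28414 peaks, 13691 in the mutant list and 14723 in the WT list. Of these, 27629 lay on the 19 autosomes, 13302 in the mutant list and 14327 in the WT list, and all shares and widths below refer to the autosomes unless chromosome X is named.

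Mutant cells came from tumours of iBIP;KMT2DL/L mice, in which both Kmt2d copies are conditional. WT cells came from iBIP;KMT2D+/+ mice. Both genotypes carry Tyr-CreERT2, a tamoxifen-activated Cre under the tyrosinase promoter, which is active in the melanocyte lineage. Both also carry Rosa26-rtta, a doxycycline-inducible oncogenic BRAF transgene, and the conditional alleles PTENL/L and INK/ARFL/L, on a mixed FVB and B6 background. In both genotypes doxycycline was given and 1 uM of 4-OHT (4-hydroxytamoxifen) was put on the ears, and cells were isolated from the ear tumours. Each genotype had 1 H3K4me3 library, so no difference has a replicate check and no test was made. The number of tumours or cell cultures behind a library is not given in the labels.

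H3K4me3 is the mark of promoters that are active or poised, and it is enriched around transcription start sites. In mammals it is placed mainly by the SET1 complexes and by KMT2A and KMT2B. KMT2D and its relative KMT2C are known instead for H3K4me1 at enhancers. The H3K4me3 lists thus show a mark that is not KMT2D's best known product. Wide H3K4me3 domains are known from genes that define a cell's identity. The lists are on the mouse build mm9 and the gene and promoter tables used here are on GRCm38, so regions carry coordinates and no gene names or sequences. For the same reason neither the Kmt2d locus nor genes of the melanocyte lineage were checked.

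The mutant list had fewer and wider peaks. Mutant peaks numbered 13302 and had a median width of 2174 bp, with the middle 50% between 1624 and 2867 bp. WT peaks numbered 14327 and had a median width of 1880 bp, with the middle 50% between 1374 and 2541 bp. The narrowest peak was 450 bp in the mutant list and 377 bp in the WT list, and the widest were 14504 and 13975 bp. The difference ran through the width classes. Peaks under 1000 bp made up 5.58% of the mutant list (742 peaks) and 10.8% of the WT list (1550 peaks), and those of 1000 to under 2000 bp 36.5% and 44.7%. From 2000 bp upward the mutant list held the larger share in each class: 36.3% against 29.2% for 2000 to under 3000 bp, 13.7% against 9.42% for 3000 to under 4000 bp, and 7.83% against 5.81% for 4000 bp and over.

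**Figure D1:**
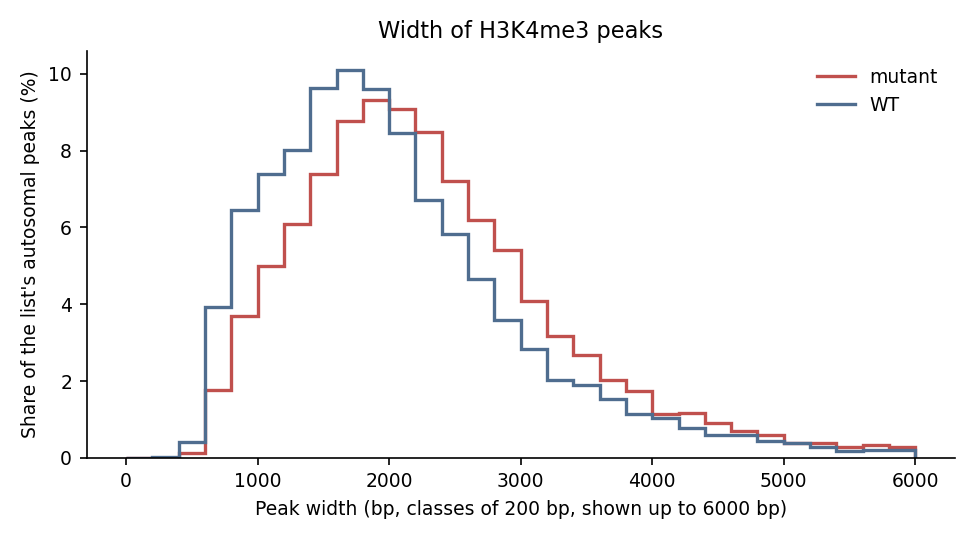
Widths of autosomal H3K4me3 peaks (x axis, bp, in classes of 200 bp up to 6000 bp) as a share of each list (y axis, %), with the mutant and the WT list as lines. The mutant line lies to the right of the WT line, with medians of 2174 and 1880 bp.

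The score per peak is the authors' and has the range of 10 times a −log10 p. It depends on read depth, which is unknown, so scores of the lists are given side by side with no comparison of strength, and a score limit set equally in both lists need not stand for equal strength. The median score was 746 in the mutant list and 950 in the WT list. The mutant list held 371 peaks at 3100 or above and the WT list 821, a value at which many scores are tied. Within each list, wider peaks had higher scores, with a Spearman correlation of 0.849 over the 13302 mutant peaks and 0.879 over the 14327 WT peaks. This is a description, since a peak's width and score come from the same reads.

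Most peaks had a counterpart. Peaks were matched when they overlapped by at least 1 bp. In the mutant list 810 of 13302 peaks, 6.09% (exact 95% binomial interval 5.69 to 6.51), had no WT peak. In the WT list 1630 of 14327 peaks, 11.4% (10.9 to 11.9), had no mutant peak. These intervals cover counting error only. The order of the shares was not the same under all limits on the lists. A limit to the 13302 strongest peaks of each list kept all mutant peaks and WT peaks scoring 126 or more. Of these, 7.90% of mutant and 7.13% of WT peaks had no counterpart among the kept peaks. Since this limit cut the WT list alone, unmatched mutant peaks could only rise in number, from 810 to 1051. With a score of at least 200 in both lists, 4.08% of mutant and 9.38% of WT peaks had none that also scored at least 200. Counterparts scoring under 200 did not count here, so these shares exceed those of peaks absent from the full other list. In 11939 cases, 1 mutant and 1 WT peak overlapped only each other, and these are called paired peaks. Paired peaks made up 89.8% of the mutant list and 83.3% of the WT list.

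Unmatched peaks were weak and narrow in both lists. In the mutant list 31.3% (29.3 to 33.4) of peaks scoring under 200 were unmatched, and in the WT list 55.0% (53.0 to 57.1). Between 200 and 500 the shares were 6.03% and 15.4%. Between 500 and 1000 they were 0.421% (15 of 3565) and 0.600% (17 of 2834), and between 1000 and 3100 only 3 of 4574 mutant and 2 of 6050 WT peaks were unmatched. At 3100 or above none of 371 mutant peaks was, which allows a share of up to 0.809%, and none of 821 WT peaks, which allows up to 0.365%. Unmatched shares were also highest among narrow peaks: 45.3% (41.7 to 48.9) of mutant peaks under 1000 bp and 58.2% (55.7 to 60.7) of WT peaks under 1000 bp had no counterpart. For 2000 to under 3000 bp these shares were 1.20% in the mutant list and 0.669% in the WT list. For 3000 to under 4000 bp they were 0.494% and 0.222%, and at 4000 bp and over 5 of 1042 mutant and none of 833 WT peaks. From 2000 bp upward the mutant share was thus the larger, with overlapping intervals in each class.

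**Figure D2:**
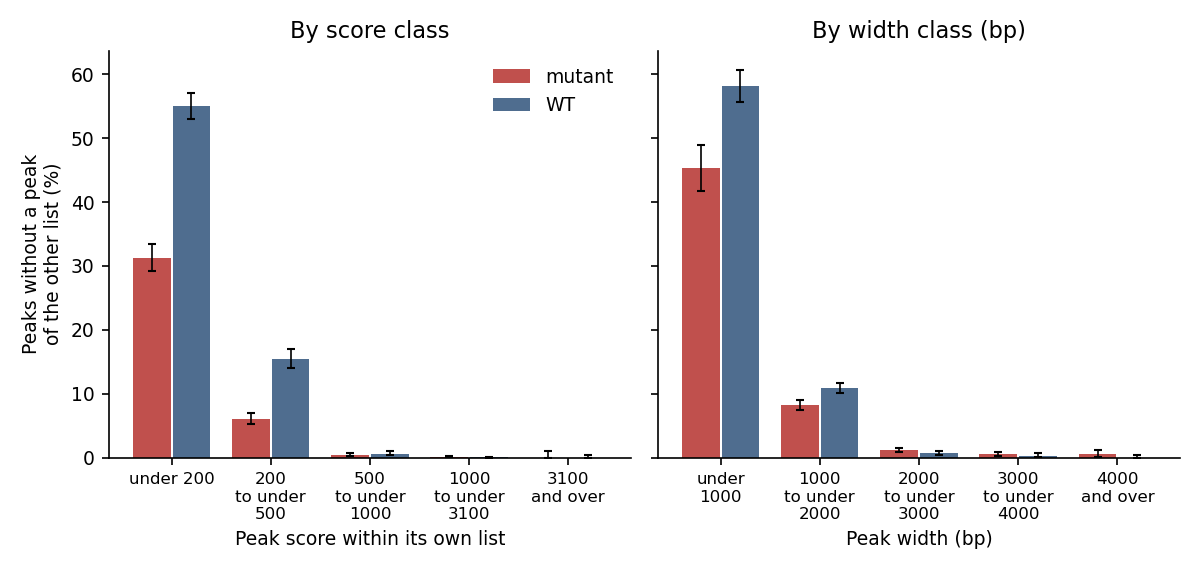
Share of peaks without an overlapping peak of the other list (y axis, %) by score class within the peak's own list (left) and by width class in bp (right). Mutant bars stand left of WT bars, and error bars are exact 95% binomial intervals; the shares lie at 31.3% and 55.0% in the lowest score class and below 1% from a score of 500 upward.

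Among the weakest peaks, the narrower ones were more often unmatched. Scores were not held equal within a class, so width is not separated from score here. Of mutant peaks scoring under 200 and narrower than that class's median of 1121 bp, 41.5% (38.4 to 44.6) were unmatched, and of the wider ones 21.1% (18.6 to 23.8). The WT list gave 63.4% (60.5 to 66.2) and 46.7% (43.8 to 49.7) around a class median of 935 bp. Between 200 and 500 the narrow and wide mutant peaks differed little, at 6.36% (5.14 to 7.77) and 5.71% (4.55 to 7.05). The WT shares there were 18.3% (16.1 to 20.6) and 12.6% (10.8 to 14.6).

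Unmatched mutant peaks had a median width of 1077 bp and a median score of 138, and unmatched WT peaks 961 bp and 139. Few of them sat close to a peak of the other list. A WT peak lay within 1000 bp of 17.0% (14.5 to 19.8) of the unmatched mutant peaks, and a mutant peak within 1000 bp of 12.6% (11.005 to 14.3) of the unmatched WT peaks. More than 10000 bp from the other list lay 438 mutant and 976 WT peaks, of which 96 and 212 were over 100000 bp away. Most unmatched peaks stood alone between matched neighbours, 630 of 810 in the mutant list and 1151 of 1630 in the WT list.

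The widest mutant peak with no WT peak within 10000 bp spanned 10090 bp on chromosome 7 from 38967470 to 38977559, with a score of 477. The nearest WT peak was 33517 bp away. The next were a 4459 bp peak on chromosome 1 from 173488830 to 173493288 (score 1239), a 4212 bp peak on chromosome 13 from 120275877 to 120280088 (score 168) and a 4084 bp peak on chromosome 8 from 111470565 to 111474648 (score 242). The peaks on chromosomes 13 and 8 were thus wide and weak. No unmatched WT peak was wider than 3425 bp. The widest of them beyond 10000 bp was 3217 bp on chromosome 15 from 77645795 to 77649011 (score 305), followed by peaks of 2846 bp on chromosome 4 from 125166878 to 125169723, 2774 bp on chromosome 1 from 3659938 to 3662711 and 2709 bp on chromosome 11 from 119876099 to 119878807.

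At the paired peaks, the mutant peak was usually the wider one. It was wider in 8437 of 11939 pairs, 70.7% (69.8 to 71.5), and narrower in 3487. Paired mutant peaks had a median width of 2215 bp and paired WT peaks 2005 bp. The median ratio of mutant to WT width was 1.08, with the middle 50% of pairs between 0.981 and 1.19 and the middle 90% between 0.812 and 1.48. Large changes were few. The mutant peak was at least 1.5 times as wide in 541 pairs, 4.53% of the 11939 (4.17 to 4.92), and the WT peak in 152 pairs, 1.27% (1.08 to 1.49). Widths of paired peaks followed each other, with a Pearson correlation of 0.889 between log2 widths over the 11939 pairs. This is a description over sites.

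The gain of width was present at nearly every score level, whichever list set the level. With classes by the mutant score, the median difference, mutant minus WT, was 12 bp under 200, 133 bp from 200 to 500, 167 bp from 500 to 1000, 205 bp from 1000 to 3100 and 169 bp above. With classes by the WT score it was 203, 104, 135, 174 and 116 bp in the same order. The lowest class changed most with the list that set it. In relative terms the difference shrank at the top: where the WT score was 3100 or above, paired mutant peaks had a median of 4245 bp and WT peaks 4122 bp, a median ratio of 1.03.

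Wide peaks differed less when the list that defined them was taken into account. Among 730 pairs with a WT peak of 4000 bp or more, the median ratio was 1.00. Among 857 pairs with a mutant peak of that width it was 1.06, and among 762 pairs sorted by the mean of both widths 1.03. Of the pairs, 596 had both peaks in this class, 261 had the mutant peak alone there and 134 the WT peak alone. Peaks that joined, split or overlapped several others added 180 mutant and 103 WT peaks to the class, and unmatched peaks 5 and 0. The class of 4000 bp and over thus held 1042 mutant and 833 WT peaks.

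Across all width classes, 2801 pairs, 23.5%, stood in a higher class in the mutant list, 843, 7.06%, in a lower one and 8295 in the same one. The move upward was greatest from the narrowest class: of 487 pairs with a WT peak under 1000 bp, 299 had a mutant peak of 1000 bp or more. A class chosen by low WT width favours such moves by its choice. In the opposite sorting, the 355 pairs with a mutant peak under 1000 bp had a median of 869 bp in the mutant and 978 bp in WT.

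The edges showed how the width was gained. An edge was counted as moved when the mutant edge lay at least 250 bp outside or inside the WT edge. Of the 23878 edges of paired peaks, 4660, 19.5% (19.0 to 20.02), had moved outward in the mutant and 1519, 6.36% (6.06 to 6.68), inward. The remaining 17699 lay within 250 bp. Both sides of the peaks gave the same picture: the edge at the lower coordinate lay a median of 70 bp outward and that at the higher coordinate 66 bp, with 20.1% and 19.0% moved outward and 6.05% and 6.68% inward. Which side faces the gene body is not known without gene strands.

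The counts depend on the overall shift of the edges. When 70 and 66 bp, the median moves, were trimmed from the ends of every mutant peak, 14.1% of edges were still moved outward and 9.48% inward. By the same trimming, which fixes the loss of length in advance, the ratio of covered length, mutant over WT, was 0.994, against 1.05 without trimming, and the pairs at least 1.5 times as wide became 3.13% for the mutant and 2.52% for WT. The median score was 801 for paired mutant peaks and 1116 for paired WT peaks. The part of read depth in the shift was not tested. Fragments of about 200 to 500 bp were retained in both libraries, per the labels.

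**Figure D3:**
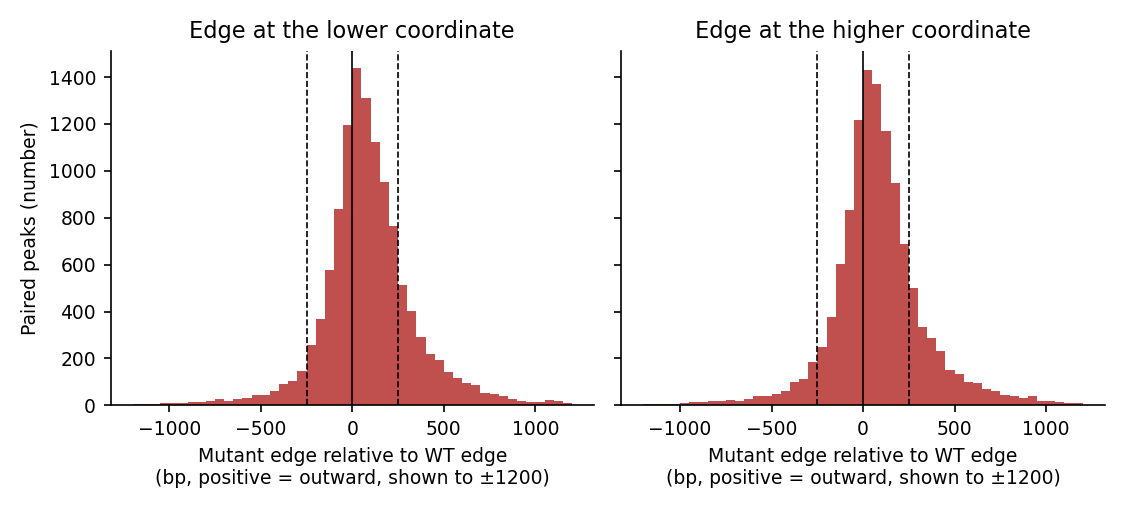
Position of the mutant edge relative to the WT edge at 11939 paired peaks (x axis, bp, positive is outward, classes of 50 bp, shown to 1200 bp) and number of pairs (y axis), for the edge at the lower coordinate (left) and at the higher coordinate (right). Dashed lines mark 250 bp; both distributions are centred outward of 0, with medians of 70 and 66 bp.

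Edges mostly moved singly. Neither edge had moved in 6644 pairs, 55.6%. A single edge had moved outward with the other within 250 bp in 3281 pairs, 27.5% (26.7 to 28.3), and both had moved outward in 564, 4.72% (4.35 to 5.12). A single edge had moved inward in 1130 pairs, 9.46%, both inward in 69, 0.578%, and 251 pairs had an edge outward and the other inward. The moves of the lower and the higher edge were nearly uncorrelated, with a Pearson correlation of 0.0855 over 11939 pairs. Where the lower edge had moved outward, the higher edge had done so in 23.6% (21.9 to 25.3) of pairs, against 18.0% (17.2 to 18.8) where the lower edge had not moved. Peak centres lay a median of 97.5 bp apart. The mutant peak enclosed the whole WT peak in 5361 pairs, 44.9%, and the WT peak the whole mutant peak in 1482, 12.4%.

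Moved edges had similar medians in both directions and a larger share of long moves inward. Edges moved outward did so by a median of 400 bp and those moved inward by 406 bp. Moves of at least 1000 bp made up 5.62% (4.98 to 6.32) of the outward moves, 262 of 4660, and 8.56% (7.20 to 10.1) of the inward moves, 130 of 1519. These are edges of paired peaks, so the 292 joins and 97 splits described below are left out. The overall outward shift was not removed here either, so the 2 shares of long moves are not on an equal footing. The share of inward moves varied with score. With the mutant score at 3100 or above, 13.0% (10.5 to 15.8) of edges had moved inward and 24.7% (21.4 to 28.2) outward. With the mutant score between 500 and 1000, 4.18% (3.72 to 4.68) had moved inward and 18.7% (17.8 to 19.6) outward. Under 200 the shares were 11.8% (10.5 to 13.1) inward and 12.3% (11.1 to 13.7) outward by the mutant score, and 5.35% (4.29 to 6.58) inward and 27.5% (25.3 to 29.7) outward by the WT score. The balance at weak peaks thus depended on the list that set the class, and that at the strongest did not, with 12.1% (10.5 to 13.9) inward and 20.3% (18.3 to 22.4) outward at a WT score of 3100 or above. Edges that faced a WT neighbour within 2000 bp had moved inward more often, 13.2% (11.1 to 15.7), than edges with no WT neighbour within 10000 bp, 6.24% (5.91 to 6.58). Outward moves were about equally frequent in these groups, at 18.8% (16.3 to 21.6) and 19.1% (18.6 to 19.7).

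The greatest gain of width was on chromosome 5. The mutant peak ran from 150075504 to 150085655 (10152 bp, score 1264) and the WT peak from 150076194 to 150079592 (3399 bp, score 1037). The higher edge lay 6063 bp further out in the mutant and the lower edge 690 bp. On chromosome 6 the gain was on a single side: the mutant peak from 88785132 to 88793427 (8296 bp) and the WT peak from 88789966 to 88793422 (3457 bp) ended within 5 bp of each other at the higher coordinate. On chromosome 16 a mutant peak of 4725 bp from 32106855 to 32111579 (score 1134) stood over a weak WT peak of 1112 bp (score 138), 4.25 times as wide. On chromosome 19 the mutant peak from 4187333 to 4194231 measured 6899 bp and the WT peak 3754 bp. Other single-edge extensions were 3009 bp on chromosome 3, where the mutant peak ran from 89712107 to 89717947, and 2771 bp on chromosome 2, where it ran from 26327054 to 26332410.

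The greatest losses of width left a shorter mutant peak, with a score under 200 on chromosomes 11, 13 and 6. On chromosome 3 the mutant peak from 34548701 to 34550779 (2079 bp, score 387) lay inside a WT peak from 34547278 to 34553468 (6191 bp, score 1725). On chromosome 11 the mutant peak from 117854961 to 117856071 (1111 bp, score 149) lay inside a WT peak of 4738 bp (score 1447). On chromosome 13 a mutant peak of 771 bp from 63350016 to 63350786 (score 120) stood over 4056 bp in WT (score 853). On chromosome 6 a mutant peak of 959 bp from 31037593 to 31038551 (score 141) stood over 3620 bp in WT (score 1053), with the loss on the lower side alone. Strong peaks could lose an edge as well. On chromosome 16 the mutant peak from 10989002 to 10993675 (4674 bp) and the WT peak from 10986323 to 10993595 (7273 bp) both scored 3100. On chromosome 10 the mutant peak from 128023709 to 128028018 measured 4310 bp (score 910) and the WT peak from 128021171 to 128028117 measured 6947 bp (score 2218).

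Mutant peaks more often joined WT peaks than the reverse. A single mutant peak covered 2 or more WT peaks in 292 cases, 2.20% of the mutant list, taking in 598 WT peaks. A single WT peak was split in the mutant in 97 cases, 0.677% of the WT list, into 197 mutant peaks. Another 31 groups had several peaks on both sides. Joining mutant peaks had a median width of 4015 bp, and the WT peaks under them summed to a median of 3601 bp. Split WT peaks had a median of 3864 bp, and their mutant pieces summed to 3718 bp. The gaps were short, with a median of 192 bp between joined WT peaks and 67 bp between mutant pieces. A piece scoring under 200 was present in 65.4% (59.6 to 70.9) of the joins and 64.9% (54.6 to 74.4) of the splits.

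The difference held in each class of gap under 2000 bp between neighbouring peaks. Of 345 WT neighbours less than 250 bp apart, 56.8% (51.4 to 62.1) lay under 1 mutant peak. Of 278 mutant neighbours at that distance, 38.5% (32.7 to 44.5) lay under 1 WT peak. At 250 to under 500 bp the shares were 42.7% (35.2 to 50.5) and 16.0% (10.1 to 23.6), and at 500 to under 1000 bp 23.6% (18.0 to 29.9) and 3.48% (0.956 to 8.67). At 1000 to under 2000 bp they were 5.50% (3.175 to 8.78) and 0.881% (0.107 to 3.15). At 2000 to under 5000 bp 4 of 745 WT neighbours and none of 638 mutant neighbours were joined, with overlapping intervals. A limit to the 13302 strongest peaks of each list, which cut the WT list alone, left 196 joins and 99 splits. Removing weak WT peaks alone takes pieces from joins and none from splits. With scores of at least 200 in both lists there were 113 joins and 38 splits.

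**Figure D4:**
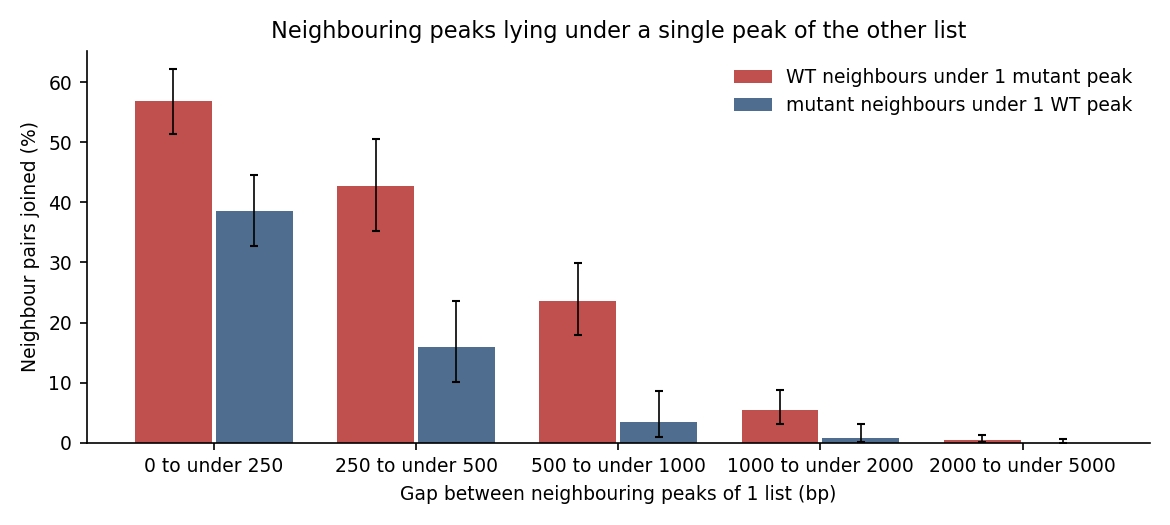
Share of neighbouring peaks of 1 list that lay under a single peak of the other list (y axis, %) by the gap between the neighbours (x axis, bp). Bars for WT neighbours under a mutant peak stand left of bars for mutant neighbours under a WT peak, with exact 95% binomial intervals; at 250 to under 500 bp they reach 42.7% and 16.0%.

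The join with the most pieces was on chromosome 11, where a mutant peak from 98808184 to 98817265 (9082 bp, score 2134) covered 4 WT peaks. These measured 1086, 2962, 832 and 2522 bp, with gaps of 629, 134 and 85 bp and scores of 154, 610, 101 and 636. On chromosome 4 a mutant peak from 138746638 to 138757041 (10404 bp) took in a WT peak of 5250 bp that scored 3100 together with WT peaks of 1342 and 2579 bp. Also on chromosome 4, a mutant peak from 125700079 to 125709313 (9235 bp) took in WT peaks of 4780, 720 and 981 bp across gaps of 1477 and 714 bp. On chromosome 5 a mutant peak from 112704839 to 112713703 (8865 bp, score 1265) covered WT peaks of 3184, 3521 and 1525 bp. In the joins on chromosomes 4 and 5 the mutant peak thus covered a WT peak of high score and lower-scoring ones next to it. On chromosome 5 the WT peaks summed to 8230 bp and lay only 83 and 79 bp apart.

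Splits into 3 pieces numbered 3. On chromosome 15 the mutant had peaks of 7410, 1401 and 1969 bp in place of a WT peak from 85499051 to 85511994 (12944 bp, score 3100), with gaps of 1546 and 241 bp. Also on chromosome 15, mutant peaks of 5625, 2119 and 1034 bp replaced a WT peak from 78989211 to 79000020 (10810 bp, score 3100). On chromosome 6 mutant peaks of 902, 1916 and 1122 bp stood over a WT peak from 126592965 to 126596275 (3311 bp), with gaps of 34 and 35 bp. The widest split in 2 was on chromosome 7, where mutant peaks of 6801 and 5021 bp, 15 bp apart and scoring 3100 and 2882, stood over a WT peak from 31197664 to 31209605 (11942 bp, score 1830). In this split on chromosome 7, the outer ends of the mutant pieces lay within 250 bp of the WT ends.

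In covered length, edges outweighed unmatched peaks. Mutant peaks covered 31.8 Mb and WT peaks 30.1 Mb, a ratio of 1.05, with mean widths of 2389 and 2104 bp. Shared bases came to 26.96 Mb, 84.9% of the mutant and 89.5% of the WT length. Paired peaks added 3.51 Mb covered in the mutant alone and 1.37 Mb covered in WT alone. Unmatched peaks added 1.02 Mb in the mutant and 1.68 Mb in WT. Joins gave 0.217 Mb to the mutant and 0.0753 Mb to WT, and splits 0.0368 and 0.0383 Mb. The larger mutant length thus came from paired peaks and joins, while unmatched peaks contributed more to WT.

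The difference was spread over the autosomes. All 19 had fewer peaks in the mutant list, with a ratio between 0.903 on chromosome 4 and 0.976 on chromosome 19, and all 19 had a greater covered length in the mutant, with a ratio between 1.01 on chromosome 16 and 1.10 on chromosome 19. The share of the list that a chromosome held differed by at most 0.190 percentage points, for chromosome 4 with 6.62% of the mutant and 6.81% of the WT list. The median width ratio of paired peaks was above 1 on all 19, from 1.06 on chromosome 18 to 1.09 on chromosome 19. On chromosome 19 75.7% of pairs were wider in the mutant, and on chromosome 18 65.6%. More edges had moved outward than inward on all 19. Outward moves ranged between 15.6% on chromosome 16 and 23.5% on chromosome 19, and inward moves between 5.31% on chromosome 4 and 7.46% on chromosome 14. Joins outnumbered splits on 18 of 19, chromosome 18 having 7 joins and 8 splits, and were most numerous on chromosome 11, with 39 joins and 4 splits.

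Unmatched shares varied more. They lay between 4.35% (chromosome 11) and 8.13% (chromosome 19) in the mutant list, and between 7.94% (chromosome 19) and 13.5% (chromosome 9) in the WT list. On 18 autosomes the mutant share was the lower. Chromosome 19 was the exception in this order, with 8.13% (5.87 to 10.9) of its mutant peaks and 7.94% (5.73 to 10.7) of its WT peaks unmatched. The intervals of the lists overlapped on other autosomes too, among them chromosome 13, with 7.65% (5.64 to 10.1) and 9.87% (7.62 to 12.5). Chromosome 19 is thus not set apart by these counts. With the same number of strongest peaks in both lists, a limit that cut the WT list alone, the mutant share was the lower on 7 of the 19 autosomes. On chromosome X, which was kept apart, 9.35% (6.64 to 12.7) of 385 mutant peaks and 10.5% (7.61 to 13.9) of 392 WT peaks were unmatched. The median width ratio of its 332 paired peaks was 1.03.

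**Figure D5:**
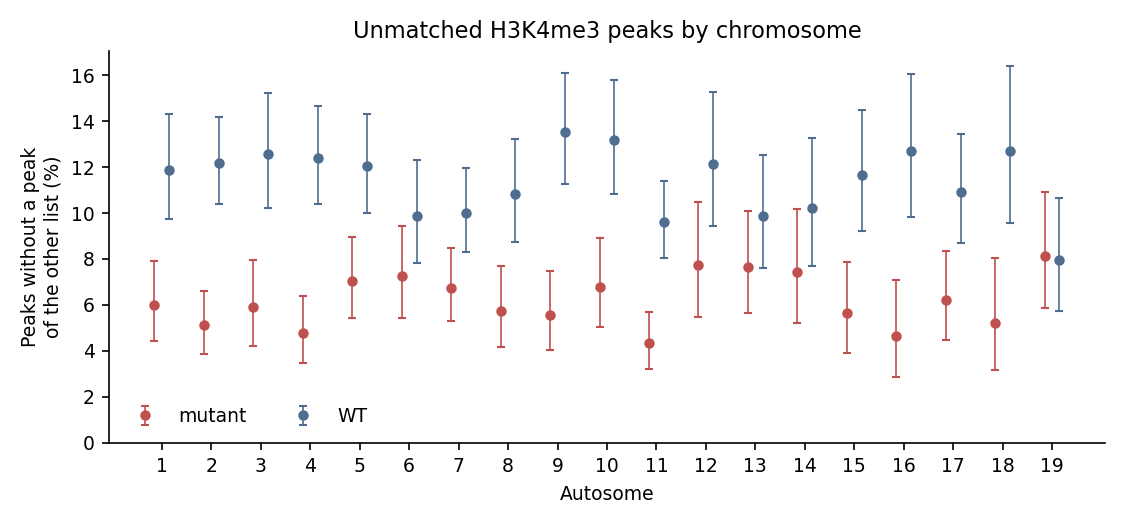
Share of H3K4me3 peaks without an overlapping peak of the other list (y axis, %) on each autosome (x axis), as points with exact 95% binomial intervals, mutant left of WT. The mutant share lies below the WT share on 18 of 19 autosomes, and the shares are 8.13% and 7.94% on chromosome 19.

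In bins of 5 Mb, 316 of 491 held fewer mutant than WT peaks, 68 held more and 107 held equal numbers. Among 284 bins with at least 20 WT peaks the ratio of counts had a median of 0.928, with the middle 90% between 0.801 and 1.05. A single bin had mutant peaks and no WT peak, and none the reverse. Unmatched mutant peaks were most numerous on chromosome 13 between 20 and 25 Mb, 16 of 94 peaks or 17.0% (10.1 to 26.2), with a median width of 832 bp. The next bin was on chromosome 3 between 95 and 100 Mb, with 10 of 75 or 13.3% (6.58 to 23.2). It was followed by chromosome 6 between 50 and 55 Mb, with 9 of 39 or 23.1% (11.1 to 39.3). The share over all autosomal mutant peaks was 6.09%. Bins were picked for their counts, which the intervals do not allow for.

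Unmatched WT peaks were most numerous on chromosome 10 between 75 and 80 Mb, 19 of 117 peaks or 16.2% (10.1 to 24.2). On chromosome 4 between 150 and 155 Mb, 18 of 59 WT peaks, 30.5% (19.2 to 43.9), had no mutant peak, and all 39 mutant peaks of this bin had a WT peak. These 18 WT peaks scored between 96.5 and 384, with a median of 153, all below the WT list's median of 950. They measured 751 to 2037 bp, with a median of 1080 bp against 1880 bp in the WT list. On chromosome 11 between 75 and 80 Mb, 18 of 104 WT peaks, 17.3% (10.6 to 26.0), were unmatched. The intervals on chromosomes 10 and 11 include 11.4%, the share over all autosomal WT peaks. These bins too were picked for their counts. The longest run of unmatched neighbours in the WT list, singled out after its values were seen, was 10 peaks on chromosome 15 from 77173607 to 77658750. No mutant peak was centred in these 485144 bp, and the WT peaks there were 748 to 3217 bp wide with scores between 105 and 305. The longest run in the mutant list, singled out in the same way, was 5 peaks within 10949 bp on chromosome 7 from 128181093 to 128192041, with scores between 92.2 and 282.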

How the data were processed

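The values start from the peak lists that the authors deposited for H3K4me3 in mutant and WT cells, each called in 1 library. Per the submitters' processing notes the tools were Bowtie, MACS, MACS2 and deepTools, with no version or role given, and the build was mm9. Libraries had 10 PCR cycles, per the labels' protocols. The score of each peak was deposited by the authors and has the range of 10 × −log10(p) in MACS; its lowest value was 90.02 in both lists. Read depth is unknown, since lists carry no counts. A peak absent from a list did not pass the authors' threshold there.

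Overlaps, widths, edges, splits and joins were computed from the coordinates, printed counted from 1. Shares carry exact (Clopper-Pearson) 95% binomial intervals for counting error; neighbouring peaks are not independent. The members, classes, rule for named regions and alternatives were chosen with earlier results of these data known. Named regions were the largest width gains and losses, single-edge moves, splits, joins, unmatched peaks beyond 10000 bp and 5 Mb bins. The other 8 lists and the inputs were not used here. Software: scipy 1.17.1 and numpy 2.4.6 under Python 3.11.15, with figures by matplotlib 3.10.9. On simulated lists of known classes the code recovered each class with an error of 0.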

Additional observations from a re-analysis of the deposited data

How the results depend on the processing

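With 1 library per genotype, no value could be recomputed without a replicate, and read depth is unknown. No paired analysis was possible because each genotype had 1 library and no test was made. At a score of at least 100, 5.59% of mutant and 10.7% of WT peaks were unmatched. At a score of at least 200 these were 4.08% and 9.38%. Under both limits a counterpart scoring below the limit did not count. Pairs at least 1.5 times as wide were then 3.92% for the mutant and 0.733% for WT, edges moved outward 20.4% and inward 6.00%, joins 113 and splits 38. With peaks within 1000 bp counted as shared, 5.05% of mutant and 9.95% of WT peaks were unmatched and splits numbered 179. With peaks of a list within 1000 bp joined first, 4.91% and 10.1% were unmatched, pairs wider in WT 1.95%, inward edges 7.23%, joins 89 and splits 21. With the same number of strongest peaks, 7.90% and 7.13% were unmatched, and pairs wider in the mutant were 4.14%. It was the only one of these settings to give the mutant list the larger unmatched share. This setting cut the WT list alone, which can only raise the number of unmatched mutant peaks. A moved edge of 100 bp gave 43.1% outward and 16.6% inward, and of 500 bp 6.45% and 2.38%. Mutant peaks trimmed by the median edge shift, an alternative chosen after seeing the data, gave 3.13% of pairs wider in the mutant and 2.52% in WT, 14.1% of edges outward and 9.48% inward, and a covered-length ratio of 0.994, on the other side of 1. That change follows from the length trimmed. The other 45 recomputed values, among them all values for all chromosomes and for cover of at least 50% of the shorter peak, moved by less than their interval, or by less than 1.5 times for counts and ratios.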
